A study of Mus musculus with 6 samples.

Results

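The clustered protocadherin genes are 3 gene arrays on mouse chromosome 18, named Pcdha, Pcdhb and Pcdhg, and the histone marks H3K9me2, H3K27me3 and H3K9me3 were measured over them in embryonic stem cells (ESCs). Members were all annotated genes with a symbol that starts with Pcdha, Pcdhb or Pcdhg and that lie on chromosome 18 between 36.9 and 38.1 Mb of the build NCBIM37. The rule found 25 of the 37310 annotated genes. Of these, 2 belonged to the alpha cluster, 22 to the beta cluster and 1 to the gamma cluster.

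Clustered protocadherins are cadherin-like adhesion proteins of the neuronal surface, and each neuron expresses its own combination of them. In the alpha and gamma clusters every variable exon has its own promoter and codes for the outer part of a protein, and splicing joins it to constant exons shared by the cluster, whereas beta genes consist of a variable exon alone. Choice among the promoters is known to involve DNA methylation, CTCF and cohesin, and the C-type variable exons at the far ends of the alpha and gamma clusters are regulated differently from the others.

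ChIP-seq of the 3 marks gave 6 libraries, with a Dicer KO library (genotype Dicer -/-) and a Dicer KO/Dnmt1 cKO library (genotype Dicer/Dnmt1 -/-) of each mark, both from ESCs. Both genotypes lacked Dicer, the nuclease that makes miRNAs and siRNAs, and both came from ESCs with loxP-flanked Dnmt1 alleles. By genotype they differ in the deletion of Dnmt1, the methyltransferase that maintains DNA methylation through cell division. Dicer had been removed by CRISPR/Cas9 in lines grown from single-cell colonies, and Dnmt1 was deleted by Cre recombinase induced with tamoxifen. Any effect of tamoxifen or of Cre itself was not tested. The labels name the strain E14, whereas the methods of the study name C57BL/6, and the labels do not give the time after induction. The cells grew in serum with LIF, and the dishes for ChIP-seq were coated with gelatine. ESCs with intact Dicer were not analysed here.

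The genome was divided into 1327469 tiles of 2 kb. The H3K9me2 libraries held 16834940 reads (Dicer KO) and 20503709 reads (Dicer KO/Dnmt1 cKO), the H3K27me3 libraries 27162045 and 21280804, and the H3K9me3 libraries 18155478 and 18931477. A mean tile therefore held between 12.7 and 20.5 reads. Throughout, a level is the number of reads per tile divided by the mean over all tiles of the same library, so that 1 is the genome mean. Unless a sentence states another order, the Dicer KO comes first in pairs of values. A change is the log2 ratio of the level in the Dicer KO/Dnmt1 cKO to that in the Dicer KO. With 1 library per mark and genotype there are no replicates and no p-value is given. The 95% intervals cover counting error only.

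Marks at gene starts were compared with the labelled cell type. Of 8 genes active in ESCs, 7 had an H3K27me3 level below 1 at their start in both genotypes, among them Pou5f1 (0.831 and 0.749) and Sox2 (0.456 and 0.520). Esrrb was the exception at 2.59 and 2.35. The medians over all protein-coding genes were 0.717 and 0.728, so a level below 1 was common. Of 6 genes of fibroblasts, which can serve as feeder cells, 3 were at 2 or more in each genotype, against 18.4% and 15.5% of protein-coding genes. In both genotypes 2 were at 2 or more, and the highest was Thy1 at 4.45 and 3.18. Over Dnmt1 (chromosome 9, 20711650 to 20757317), the 3 marks together gave 412 reads in the Dicer KO against 483 in the Dicer KO/Dnmt1 cKO. No tile of the gene lacked reads in either genotype, and the tile at 20744001 held 8 and 2 reads. Over Dicer1 (chromosome 12, 105925952 to 105990162), the counts were 889 and 1052. Repressive marks do not measure transcripts, and the deletions were not tested by these counts.

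The members lie head to tail on the plus strand. The alpha cluster spans 37089939 to 37347311, the beta cluster 37424652 to 37681073 and the gamma cluster 37833989 to 38001527, which correspond to 130, 129 and 85 tiles. The annotation holds the alpha cluster as Pcdha11 (ENSMUSG00000007440.7), with 10 transcripts, and Pcdha3, and the gamma cluster as Pcdhgc5 alone, so most alpha and gamma exons have no symbol of their own and are named here by transcript. These names give 10 alpha, 22 beta and 9 gamma starts, 41 in all. Among the beta genes, Pcdhb20 is annotated as a pseudogene. A search of the reference for open reading frames of at least 1900 bases that repeat the calcium-binding motif of cadherins found 14 alpha, 22 beta and 22 gamma frames, the same numbers as the symbols listed by RefSeq for each cluster. All 58 frames carried the motif 5 times, and they ran from 743 to 883 codons. They are called variable exons below and are numbered along each cluster. All 41 annotated starts lay within 2 kb of a variable exon, and 17 variable exons, 4 in alpha and 13 in gamma, had no annotated start.

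Variable exons of neighbouring members resemble one another, and reads that map to several places had been discarded. The share of 50-base stretches of a variable exon that occur again in the region was 7.14% at the median and 27.1% at most, in alpha exon 6. It was above 10% in 22 of the 58 exons. The variable exons of alpha and gamma were richer in CpG sites than those of beta. The median number per 6 kb window around an exon start was 141.5 in alpha, 93 in beta and 138.5 in gamma.

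H3K27me3, the mark set by Polycomb repressive complex 2, was the mark that stood out over the clusters. Its level exceeded the genome mean in all 3 clusters and in both genotypes, whereas H3K9me3 lay between 0.719 and 1.17 and H3K9me2 between 0.491 and 1.01. The beta cluster carried the most H3K27me3 and the gamma cluster the least of all 3 marks. The order of the clusters was the same in both genotypes. Levels of H3K9me2 and of H3K9me3 declined from alpha to beta to gamma.

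In the alpha cluster, H3K27me3 stood at 1.89 in the Dicer KO (5021 reads, interval 1.84 to 1.94) against 1.77 in the Dicer KO/Dnmt1 cKO (3689 reads, 1.71 to 1.83). In the beta cluster it stood at 2.20 (5797 reads, 2.14 to 2.25) and 1.92 (3962 reads, 1.86 to 1.98). In the gamma cluster it stood at 1.31 (2276 reads, 1.26 to 1.36) and 1.15 (1568 reads, 1.09 to 1.21). The intervals of the 3 clusters did not overlap in either genotype. H3K9me3, the mark of constitutive heterochromatin, was at 1.17 and 1.15 over alpha, 1.01 and 0.983 over beta, and 0.784 and 0.719 over gamma. H3K9me2, which is set by Ehmt1 and Ehmt2 over broad silent domains, was at 1.01 and 1.00 over alpha and 0.851 and 0.846 over beta. Over gamma it was at 0.491 (529 reads, 0.450 to 0.534) and 0.577 (757 reads, 0.536 to 0.619). Only the gamma cluster was therefore below the genome mean in both H3K9 marks and in both genotypes beyond counting error.

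**Figure D1:**
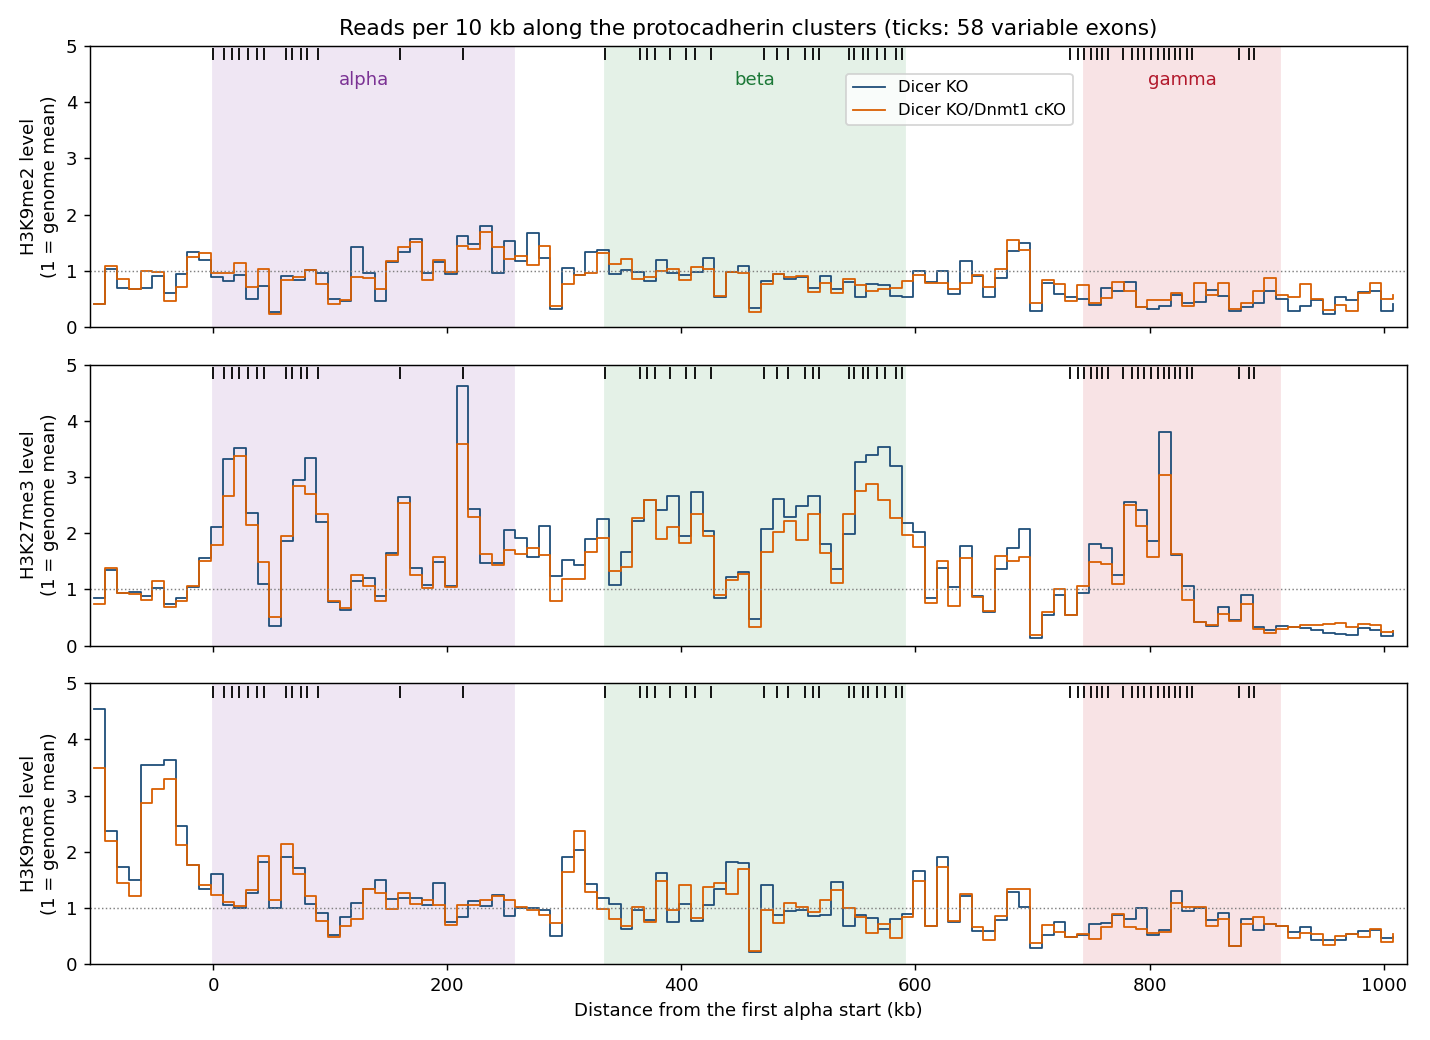
Levels of H3K9me2, H3K27me3 and H3K9me3 in 10 kb steps along the clusters against distance from the first alpha start in kb, with 1 as the genome mean (dotted line). Blue lines are the Dicer KO, orange lines the Dicer KO/Dnmt1 cKO, shaded bands the 3 clusters and ticks the 58 variable exons. H3K27me3 forms peaks where variable exons lie and is low at the end of the gamma cluster, and H3K9me3 is high before the alpha cluster.

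No input library was used here, so each mark was also set against the others of the same genotype. The share of H3K27me3 reads over a cluster, divided by the mean share of both other marks, was 1.73 and 1.64 in alpha, 2.36 and 2.09 in beta, and 2.05 and 1.78 in gamma. On this scale gamma stood above alpha. For H3K9me2 the ratio was 0.657 and 0.687 in alpha, 0.531 and 0.584 in beta, and 0.469 and 0.617 in gamma. For H3K9me3 it lay between 0.664 and 0.872 in the 3 clusters and both genotypes, whereas against H3K9me2 alone it lay between 1.15 and 1.60.

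Of the 100 kb windows of the genome, 7 were assigned to the clusters, 2 to alpha, 3 to beta and 2 to gamma. The first and the last beta window and the first gamma window also hold sequence outside their cluster. For H3K27me3 in the Dicer KO, the windows ranked, in order along the chromosome, at percentiles 96.3 and 77.2 in alpha, 95.02, 91.9 and 98.5 in beta, and 85.1 and 43.5 in gamma among 25295 windows. Only the last window of gamma was below the median window. For H3K9me2 in the same genotype the 7 windows ranked between percentiles 4.77, the last window of gamma, and 47.5, the second of alpha, among 25258 windows. H3K9me3 ranked between percentiles 13.6, the first window of gamma, and 84.7, the first of alpha, among 25317 windows. All windows but the last of gamma thus ranked at percentile 77.2 or above in H3K27me3, and all 7 were below the median window in H3K9me2.

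Within the clusters, H3K27me3 was concentrated on the variable exons. Tiles with a variable exon carried about the same level in alpha and beta, and the tiles between exons carried much less in each of the clusters. The constant exons of gamma and the sequence after them were low in H3K27me3, whereas the constant exons of alpha were not.

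Over the 34 alpha tiles that overlap a variable exon, the H3K27me3 level was 3.15 and 2.87, against 1.44 and 1.38 over the 96 other tiles. In beta it was 3.20 and 2.76 over 45 tiles against 1.66 and 1.46 over 84 others. In gamma it was 1.81 and 1.54 over 49 tiles, which include those of exons 1 and 2 just before the annotated gene, against 0.627 and 0.618 over 41 others. Tiles with an exon were thus higher than those without in every cluster and both genotypes, and the intervals did not overlap. The same split gave smaller contrasts for the other marks. H3K9me2 in the Dicer KO was 0.907 with and 1.04 without an exon in alpha, 0.775 and 0.893 in beta, and 0.467 and 0.527 in gamma. H3K9me3 in the Dicer KO was 1.40 and 1.09 in alpha, 0.877 and 1.08 in beta, and 0.794 and 0.737 in gamma. In that genotype H3K9me3 was therefore higher over the exons of alpha and lower over those of beta beyond counting error.

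The constant exons of alpha, which all alpha proteins share, had an H3K27me3 level of 1.88 in the Dicer KO (154 reads, 1.60 to 2.20) against 2.23 in the Dicer KO/Dnmt1 cKO (143 reads, 1.88 to 2.63). Those of gamma had 0.208 (17 reads, 0.121 to 0.333) and 0.250 (16 reads, 0.143 to 0.405). The 100 kb after gamma stood at 0.266 and 0.346 in H3K27me3. The 100 kb before alpha stood at 1.02 and 0.996, those after alpha at 1.67 and 1.44, those after beta at 1.32 and 1.23, and those before gamma at 1.01 and 0.973. H3K27me3 was thus near the genome mean before alpha and before gamma, above it after alpha and after beta, and far below it after gamma. The 100 kb after alpha reach into the beta cluster, and those before gamma hold gamma exons 1 and 2. H3K9me3 showed another border. The 100 kb before alpha had levels of 2.64 (1808 reads, 2.52 to 2.77) and 2.29 (1634 reads, 2.18 to 2.41), and no cluster reached these levels.

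Aligned on the starts of the 58 variable exons, H3K27me3 was 1.98 and 1.84 in the tile before the start, 2.49 and 2.15 in the start tile, 2.92 and 2.52 in the next tile and 1.83 and 1.75 in the tile after that. Over all 58 exons the peak was thus a pair of tiles wide and lay over the exon. In gamma alone H3K27me3 was 1.48 and 1.19 in the start tile and peaked in the next, at 2.19 and 1.89. For the 58 exons together, H3K9me2 was lowest in the start tile, at 0.527 (0.476 to 0.583) and 0.602 (0.552 to 0.655). It stood at 0.714 and 0.731 in the tile before. H3K9me3 was 0.840 and 0.846 in the start tile and 1.15 and 1.09 in the next. Base composition followed the same course. GC content was 39.3% in the tile before the start, 44.8% in the start tile, 48.7% in the next and 38.8% after that, and its part in the profile was not tested.

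**Figure D2:**
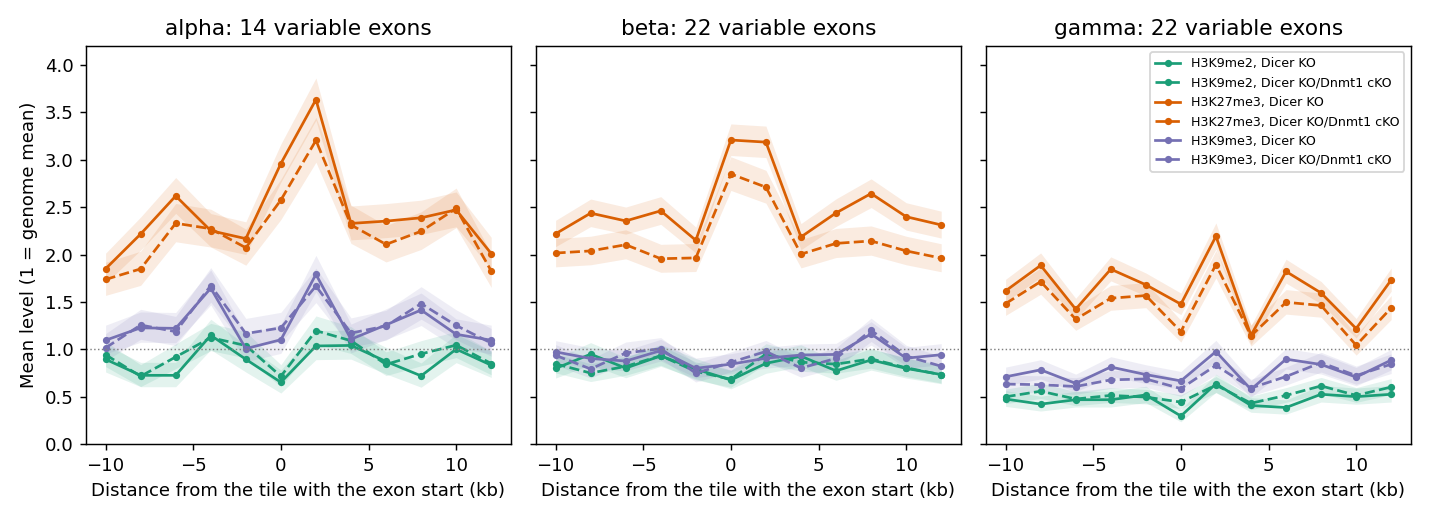
Mean levels of the 3 marks around the starts of 14 alpha, 22 beta and 22 gamma variable exons against distance from the tile that holds the start in kb, with 1 as the genome mean. Solid lines are the Dicer KO, dashed lines the Dicer KO/Dnmt1 cKO and bands the 95% counting interval. H3K27me3 peaks at 0 and 2 kb in alpha and beta and at 2 kb in gamma.

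By member, H3K27me3 was high at nearly all alpha and beta starts and at few gamma starts. A start window is the tile that holds a start with the tile on either side, 6 kb in all. Of the 41 start windows, 33 reached 2 times the genome mean in the Dicer KO, against 18.4% of all protein-coding genes. In the Dicer KO/Dnmt1 cKO 30 reached it, against 15.5%, and 28 did so in both genotypes. The median level of the 41 windows was 2.77 and 2.52, against 0.717 and 0.728 over all 22380 protein-coding genes.

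The clusters differed in this count. All 10 alpha starts were at 2 or more in the Dicer KO, whereas 9 were in the Dicer KO/Dnmt1 cKO, with medians of 3.27 and 2.82. Of the 22 beta starts, 21 and 19 were at 2 or more, with medians of 2.86 and 2.55. Of the 9 gamma starts, 2 were at 2 or more in each genotype, but only 1, Pcdhgc5-201, was so in both. The gamma medians were 1.04 and 1.16. Over all 22 gamma variable exons, most of them without an annotated start, the medians were 1.76 and 1.58. Among the annotated starts, beta windows covered a narrow range, from 1.74 to 3.99 in the Dicer KO, and gamma windows a wide one, from 0.749 to 4.45. The windows of 6 beta and 4 gamma starts share a tile with a neighbour and are not independent of each other.

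The highest H3K27me3 level of any member was at Pcdha11-202, the last variable exon of alpha, in the stretch where the C-type exons lie. It had 6.04 in the Dicer KO (371 reads, 5.44 to 6.69) against 3.93 in the Dicer KO/Dnmt1 cKO (189 reads, 3.39 to 4.53). Next came Pcdhgc5-201, gamma exon 14, at 4.45 (3.94 to 5.01) and 3.26 (2.77 to 3.82), and Pcdhb19 at 3.99 (3.51 to 4.52) and 2.99 (2.53 to 3.53). Pcdha11-202 stood above every other member in the Dicer KO. Its interval overlapped those of both after loss of Dnmt1. The lowest levels were at gamma starts. Pcdhgc5-208 had 0.749 and 0.582, Pcdhgc5-203 had 0.912 and 0.769, and Pcdhgc5-207, the first annotated gamma start, had 0.929 and 1.16. All 3 intervals overlapped in the Dicer KO.

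At the ends of the clusters, the first alpha start, Pcdha11-204, had an H3K27me3 level of 2.02 and 1.66. The first beta gene, Pcdhb1, which lies apart from the other beta genes, had 2.77 and 2.31. The last beta gene, Pcdhb22, had 3.14 and 2.60. These 3 values were below, near and above the medians of their clusters in the Dicer KO.

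**Figure D3:**
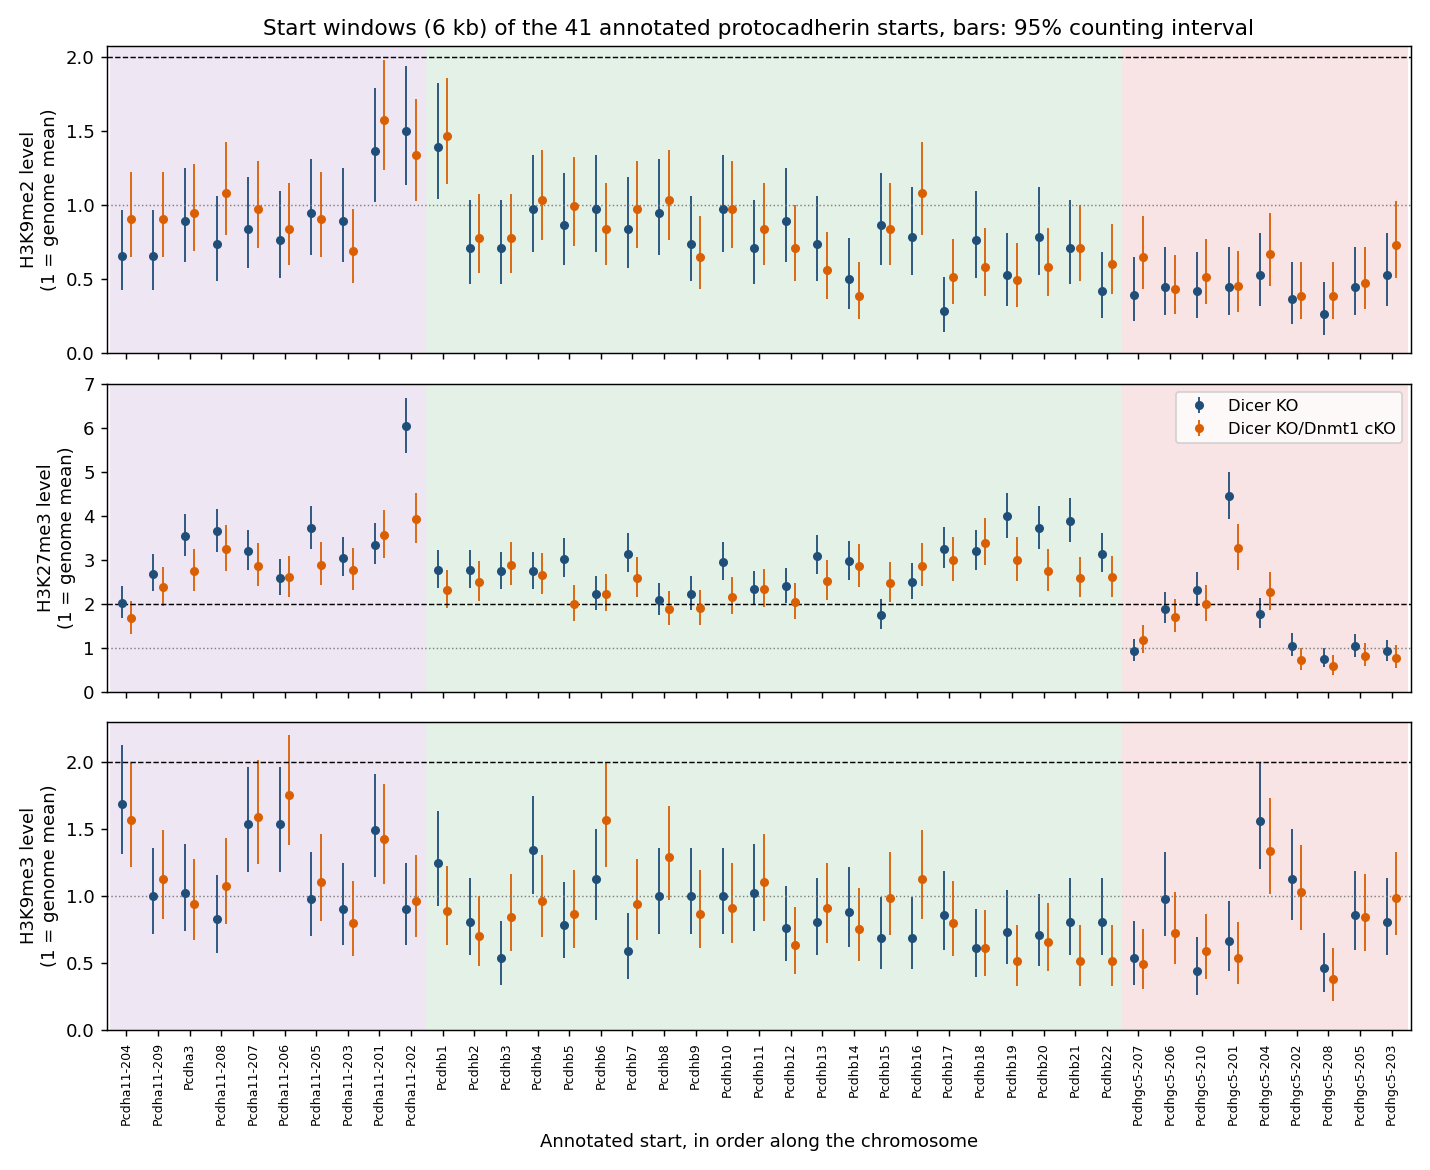
Levels of H3K9me2, H3K27me3 and H3K9me3 in the 6 kb start windows of the 41 annotated protocadherin starts, in order along the chromosome, with 1 as the genome mean and a dashed line at 2. Blue points are the Dicer KO, orange points the Dicer KO/Dnmt1 cKO and bars the 95% counting interval. H3K27me3 lies above 2 at most alpha and beta starts, and the single highest point is Pcdha11-202 at 6.04.

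H3K9me2 and H3K9me3 did not reach 2 at any of the 41 starts in either genotype. Over all protein-coding genes, 0.554% and 0.389% of start windows were at 2 or more in H3K9me2, and 0.903% and 0.719% in H3K9me3. The medians of the members were 0.736 and 0.777 for H3K9me2, against 0.578 and 0.647 over all protein-coding genes. For H3K9me3 they were 0.853 and 0.912, against 0.682 and 0.678.

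In H3K9me2 the 3 highest members were Pcdha11-202 at 1.498 and 1.34, Pcdhb1 at 1.39 and 1.47, and Pcdha11-201 at 1.37 and 1.58. These are the last exon of alpha, the first of beta and the next to last of alpha, which are neighbours along the chromosome. The lowest were Pcdhgc5-208 at 0.263 and 0.388, Pcdhb17 at 0.289 and 0.518, and Pcdhgc5-202 at 0.368 and 0.388, on 10 to 24 reads each. All 9 gamma starts were at or below 0.526 in the Dicer KO, and their intervals overlapped one another.

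In H3K9me3 the highest members were Pcdha11-204 at 1.68 and 1.57, Pcdhgc5-204 at 1.56 and 1.33, and, level with each other in the Dicer KO, Pcdha11-207 at 1.54 and 1.59 and Pcdha11-206 at 1.54 and 1.75. Pcdha11-204 is the first alpha start and lies next to the stretch before the cluster where H3K9me3 was high. The lowest were Pcdhgc5-210 at 0.439 and 0.584, Pcdhgc5-208 at 0.463 and 0.374, and, level in the Dicer KO, Pcdhb3 at 0.536 and 0.841 and Pcdhgc5-207 at 0.536 and 0.491. Pcdhgc5-208, a gamma exon near the far end of the cluster, was among the 3 lowest in each of the marks.

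The variable exons without an annotated start filled in the course along alpha and gamma. Over all 58, 39 windows were at 2 or more in H3K27me3 in the Dicer KO against 36 in the Dicer KO/Dnmt1 cKO, and none in the other marks. In the Dicer KO the count was 11 of 14 in alpha and 7 of 22 in gamma. The exons singled out by number were chosen after their values had been seen.

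In alpha, exons 1 to 5 ran from 2.02 at exon 1 to 3.65 at exon 4 in the Dicer KO, and exons 9 to 14 stood between 2.59 and 6.04. Between them H3K27me3 dropped. Exon 6 had 1.43 and 1.54, exon 7 had 1.11 and 1.58, and exon 8 had 1.68 and 2.35. H3K9me3 did not drop there, at 1.49 and 1.64 for exon 6, 1.75 and 1.57 for exon 7, and 1.68 and 1.94 for exon 8. These exons also had high shares of repeated 50-base stretches, at 27.1%, 24.1% and 18.2%, whereas exon 11, at 18.9%, had an H3K27me3 level of 3.71. Over the 14 alpha exons, rho between the repeated share and the H3K27me3 level was −0.618 in the Dicer KO, whereas it was −0.0328 in beta, 0.421 in gamma and 0.206 over all 58 exons. The part of discarded reads in these values was not tested. The 2 last alpha exons had no repeated stretch.

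In gamma, exons 1 to 3 had H3K27me3 levels of 0.668, 0.701 and 1.03 in the Dicer KO, exons 4 to 17 ranged from 1.65 to 4.45, and exons 18 to 22 ranged from 0.749 to 1.34. The rise in the middle and the drop at the end were present in the Dicer KO/Dnmt1 cKO as well, where exon 14 had 3.26 and exons 19 to 22 had 0.582 to 0.811. The last 3 gamma exons, where the C-type exons of gamma lie, thus had low levels, whereas the last 2 of alpha had 3.34 and 6.04 in the Dicer KO against 3.56 and 3.93 in the Dicer KO/Dnmt1 cKO. None of these 5 exons had repeated stretches.

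The order of the members was similar between the genotypes for H3K27me3 in alpha and gamma and less so in beta. Across the 58 variable exons, Spearman's rho between the levels in both genotypes was 0.891 in H3K27me3, 0.797 in H3K9me2 and 0.749 in H3K9me3. Within alpha, beta and gamma it was 0.925, 0.554 and 0.927 in H3K27me3, 0.560, 0.753 and 0.692 in H3K9me2, and 0.817, 0.338 and 0.714 in H3K9me3, so the values over all exons also hold differences between clusters. The exons share libraries, neighbouring tiles and base composition and are not replicates. Within alpha (14 exons), H3K27me3 and H3K9me3 ran in opposite directions, with a rho of −0.764 (Dicer KO) and −0.581 (Dicer KO/Dnmt1 cKO). In beta (22 exons) rho was −0.330 and −0.391, and in gamma (22 exons) it was 0.211 and 0.0309. The relation of H3K27me3 to GC content also differed, with a rho of 0.789 in alpha, −0.0399 in beta and −0.174 in gamma in the Dicer KO. Along beta in the same genotype, H3K27me3 rose with distance from the first gene (rho 0.515) and H3K9me2 declined (rho −0.567).

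The comparison of the genotypes asks how the marks over the clusters differed after deletion of Dnmt1 in cells without Dicer. H3K27me3 was lower in the Dicer KO/Dnmt1 cKO in all 3 clusters. The value was smallest in alpha, but the counting intervals of the 3 clusters overlapped. H3K9me2 was higher over gamma and did not differ beyond counting error over alpha and beta. For H3K9me3 no cluster differed beyond counting error.

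The change of H3K27me3 was −0.09 over alpha (interval −0.15 to −0.03), −0.20 over beta (−0.26 to −0.14) and −0.19 over gamma (−0.28 to −0.09). H3K9me2 changed by 0.23 over gamma (0.07 to 0.39), on 529 and 757 reads. Over alpha the value was −0.0045 (−0.10 to 0.09) and over beta −0.01 (−0.11 to 0.09). H3K9me3 had −0.03 over alpha (−0.11 to 0.06), −0.04 over beta (−0.13 to 0.05) and −0.13 over gamma (−0.26 to 0.01). A single library per group leaves differences between preparations and the effect of the deletion confounded, and they cannot be told apart.

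Among all 100 kb windows of the genome, H3K27me3 was lower in the Dicer KO/Dnmt1 cKO where its level was high and higher where it was low. The median change was −0.23 in windows at 3 or more, −0.09 between 2 and 3, −0.03 between 1.5 and 2, −0.01 in both steps between 1 and 1.5, 0.02 between 0.75 and 1, 0.08 between 0.5 and 0.75, and 0.16 below 0.5. The 7 windows of the clusters had changes of −0.07 and −0.04 in alpha, −0.14, −0.20 and −0.23 in beta, and −0.13 and −0.22 in gamma, which was below the median of its level in all but the first alpha window. They ranked at percentiles 22.6 and 32.5, then 8.29, 3.14 and 1.89, then 10.8 and 2.05 of all 25295 windows. The last gamma window had levels of 0.913 and 0.782, and 5% of windows between 0.75 and 1 had a change below −0.15, so this window changed more than most of its level. The second beta window stood at the 5% limit of its level, which was −0.20. The last beta window, at 2.54 and 2.17, lay inside the range of its level, where 5% of windows were below −0.26. For H3K9me2, windows between 0.5 and 0.75 had a median change of 0.13, and 5% of them were above 0.38. At this level the first gamma window had 0.11, the last gamma window 0.33 and the last beta window 0.04.

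Within the clusters, H3K27me3 was lower over tiles with variable exons in all 3 clusters and over the other tiles in beta. Over beta it was −0.21 (−0.29 to −0.13) in tiles with an exon and −0.18 (−0.27 to −0.10) in the others. Over gamma it was −0.23 (−0.34 to −0.13) and −0.02 (−0.21 to 0.17). Over alpha it was −0.13 (−0.22 to −0.04) and −0.06 (−0.15 to 0.02), and the difference between the classes was not tested. Alpha exons 6, 7 and 8, which were low in H3K27me3 in the Dicer KO, had changes of 0.10 (−0.34 to 0.55), 0.51 (0.041 to 0.98) and 0.49 (0.10 to 0.87). They were singled out by the Dicer KO level from which the change is computed, and such a choice favours a rise. Over all 58 exons the interval lay above 0 in 3, against 3.74% of protein-coding genes, and below 0 in 9, against 18.6%. Over the 100 kb after gamma, where H3K27me3 was also low, the change was 0.38 (0.14 to 0.62), from 0.266 to 0.346. This lay inside the range of 100 kb windows below 0.5, with a median of 0.16 and 5% above 0.46. Of the tile classes in gamma, the constant exons had the largest change of H3K9me2, with 19 and 46 reads, levels of 0.375 and 0.745 and a change of 0.99 (0.22 to 1.76). H3K9me3 over the 100 kb before alpha changed by −0.21 (−0.30 to −0.11).

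Few single members changed by 1.5-fold. The share was close to that of all genes for lower H3K27me3 and for H3K9me3, and below it for H3K9me2. Of 41 starts with at least 50 reads of H3K27me3 over both libraries, 3 were lower by at least 1.5-fold, against 9.16% of protein-coding genes, and 0 were higher, against 3.31%. The median change was −0.21, and 31 of the 41 were below 0, against a median of −0.11 over all protein-coding genes, of which 8701 of 14214 were below 0. The 3 were Pcdha11-202, Pcdhb5 and Pcdhb21.

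Pcdha11-202 fell from 6.04 to 3.93 (change −0.62, −0.87 to −0.37). Pcdhb5 fell from 3.03 (186 reads, 2.61 to 3.50) to 2.00 (96 reads, 1.62 to 2.44), a change of −0.60 (−0.95 to −0.24). Pcdhb21, near the far end of beta, fell from 3.89 (239 reads, 3.42 to 4.42) to 2.58 (124 reads, 2.14 to 3.07), a change of −0.59 (−0.90 to −0.28). All 3 still stood well above the genome mean in the Dicer KO/Dnmt1 cKO. With 5 reads added to each count 1 start was lower by 1.5-fold, and none was lower by 2-fold. The 3 largest upward values were those of Pcdhb15, from 1.74 (1.43 to 2.11) to 2.47 (2.05 to 2.96) with a change of 0.50 (0.13 to 0.88), Pcdhgc5-204, from 1.76 to 2.27 (0.37, −0.02 to 0.75), and Pcdhgc5-207, from 0.929 to 1.16 (0.33, −0.20 to 0.86). None of them reached 1.5-fold. In a count added after the values were seen, the counting interval lay below 0 in 9 of the 41, against 18.6% of protein-coding genes, and above 0 in 1, Pcdhb15, against 3.74%.

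At levels of 2 to 4 the medians of members and of other genes were close. Members with a mean level of 2 to 3 over both genotypes had a median change of −0.15 (21 members) against −0.19 over 1968 protein-coding genes. Between 3 and 4 the medians were −0.36 (11 members) and −0.33 (913 genes). Between 0.5 and 1 they were −0.34 (4 members, all of them gamma starts below 0) and 0.01 (4717 genes, 48.1% of them below 0), and the counting intervals of these 4 members included 0. The difference from other genes was not tested. Over all 33 members with a mean level of 2 or more the median was −0.18, against −0.31 over 3801 protein-coding genes, 215 of which stood at 6 or more, above any member. Among these genes 628 (16.5%) were lower by at least 1.5-fold, against 3 (9.09%) of the 33 members.

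**Figure D4:**
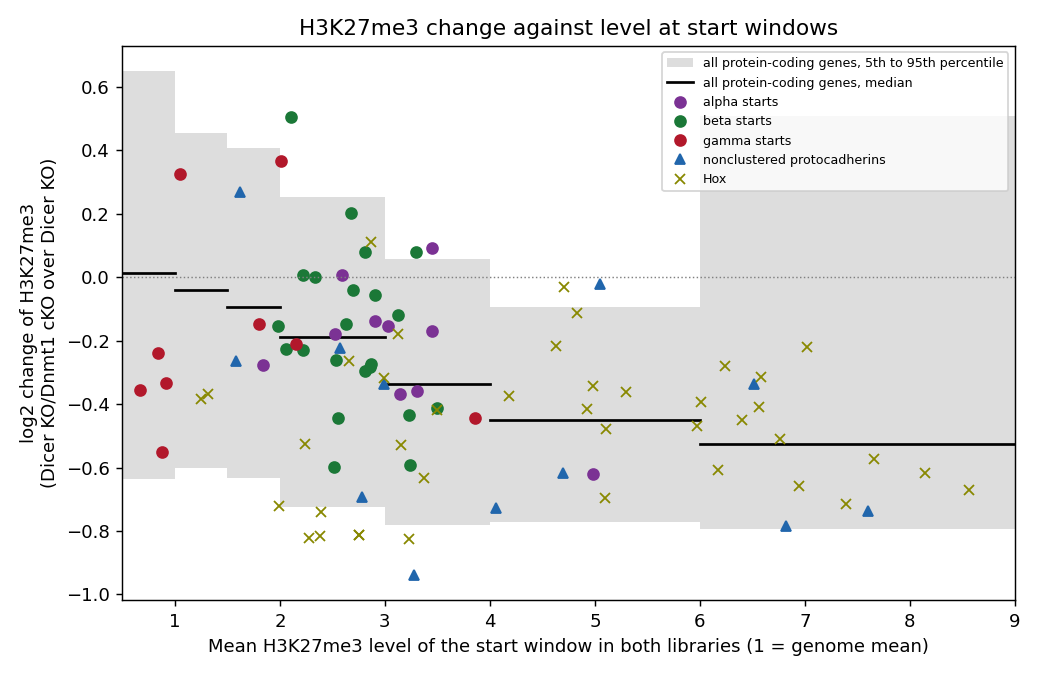
Log2 change of H3K27me3 in start windows against the mean level over both libraries, with 1 as the genome mean. Circles are alpha, beta and gamma starts, triangles nonclustered protocadherins and crosses Hox genes, the black steps give the median of all protein-coding genes at each level and the grey band their 5th to 95th percentile. The circles scatter around the black steps, which fall from near 0 at a level of 1 to −0.45 between 4 and 6.

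H3K9me2 changed by 1.5-fold at none of the 30 starts with enough reads, against 7.91% of protein-coding genes that were higher and 2.8% that were lower. The median was 0.11. The largest upward values were 0.54 at Pcdha11-208 (0.736 and 1.08), 0.47 at Pcdhgc5-203 (0.526 and 0.734) and 0.45 at both Pcdha11-209 and Pcdha11-204 (each 0.657 and 0.906). The largest downward values were −0.43 at Pcdhb20 (0.789 and 0.583), −0.39 at Pcdhb13 (0.736 and 0.561) and −0.39 at Pcdhb18 (0.762 and 0.583). All 7 intervals included 0, and of the 30 starts the interval lay above 0 at 0, against 4.77% of protein-coding genes, and below 0 at 0, against 2.62%. Of the 9 gamma starts, 7 had too few reads to enter.

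H3K9me3 was at least 1.5-fold higher at 3 of 38 starts, against 5.82% of protein-coding genes, and lower at 2, against 4.92%. All 5 were beta genes with 22 to 48 reads in each library. The higher ones were Pcdhb16, from 0.682 to 1.12 with a change of 0.71 (0.04 to 1.37), Pcdhb7, from 0.585 to 0.935 (0.66, −0.06 to 1.39), and Pcdhb3, from 0.536 to 0.841 (0.64, −0.12 to 1.40). The lower ones were the neighbours Pcdhb21 and Pcdhb22, each from 0.804 to 0.514 (−0.63, −1.41 to 0.14). Pcdhb19 followed at 0.731 and 0.514 (−0.50, −1.29 to 0.29). Of all 38 starts the interval lay above 0 at 1, Pcdhb16, against 3.76% of protein-coding genes, and below 0 at 0, against 2.98%. These calls rest on few reads, and with 5 reads added to each count 1 start was higher and 0 were lower.

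Other genes gave a scale for the levels and changes of the members. Nonclustered protocadherins, which are single genes of the same family with their own promoters, carried more H3K27me3 than the clustered ones. Of 12 found in the annotation, 10 were at 2 or more in each genotype, with medians of 4.69 and 2.85. Pcdh7 had 9.51 and 5.70 and Pcdh10 had 8.63 and 5.01, whereas Pcdh12 had 1.47 and 1.77 and Pcdh11x had 1.73 and 1.43. Of the 12, 6 were lower by at least 1.5-fold, with a median change of −0.48 over all 12. The nonclustered genes thus lay above the clustered ones in the Dicer KO by their median, and the medians were closer in the Dicer KO/Dnmt1 cKO, where the 41 clustered starts had 2.52.

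Among the cadherins Cdh1 to Cdh13, 9 and 6 were at 2 or more in H3K27me3, with medians of 3.05 and 1.91 and a median change of −0.34, and 3 were lower by at least 1.5-fold. Cdh11 had 6.35 and 5.03 and Cdh8 had 4.72 and 3.35, whereas Cdh1, the E-cadherin of ESCs, had 0.472 and 0.457 and Cdh9 had 0.619 and 0.873. Hox genes, the classical Polycomb targets, were at 2 or more in 38 and 31 of 40, with medians of 5.00 and 4.24, and 14 were lower. The median of the 41 clustered starts, 2.77 and 2.52, was below that of Hox genes in both genotypes. It was below that of the cadherins in the Dicer KO, although the median of the alpha starts alone, 3.27, exceeded the cadherin median. In the Dicer KO/Dnmt1 cKO the median of the 41 was above that of the cadherins.

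The 18 protein-coding neighbours within 200 kb of the clusters were mostly low in H3K27me3, with medians of 0.342 and 0.405. Gm10545, which lies inside the alpha cluster, had 2.62 and 2.81, and Arap3 had 1.99 and 2.54. Slc25a2 had 0.179 and 0.395 and Diap1 had 0.212 and 0.250. The 24 genes for regulators of the clusters, which include Ctcf, cohesin subunits, Dnmt3b, Setdb1 and Polycomb subunits, had medians of 0.212 and 0.301 and none at 2 or more. Their highest values were at Wiz (1.40 and 1.12) and Dnmt3a (1.35 and 0.769), and Stag2 was among the lowest (0.0815 and 0.0832). Of the large families, 371 Zfp genes had medians of 0.358 and 0.416. The 1113 olfactory receptor genes, which are chosen singly in neurons, had medians of 0.945 and 0.936. The median of the 41 members was thus above the medians of the neighbours and of both large families in both genotypes, whereas single gamma starts lay below the median of the olfactory receptor genes.

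For the other marks the lists differed less. In H3K9me2 the medians in the Dicer KO were 0.513 for nonclustered protocadherins, 0.605 for Cdh1 to Cdh13, 0.526 for the neighbours, 0.342 for Hox genes and 1.24 for olfactory receptor genes, against 0.736 for the members. In H3K9me3 they were 0.707, 0.634, 0.561, 0.548 and 1.05 in the same order, against 0.853 for the members. The medians of olfactory receptor genes in the Dicer KO were thus above those of the 41 starts in both H3K9 marks and below in H3K27me3. In H3K9me3 the 10 alpha starts had medians of 1.01 and 1.11, against 1.05 and 1.01 for the olfactory receptor genes. The 14 alpha variable exons, a set added after the data had been seen, were above these genes, with medians of 1.45 and 1.46.

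**Figure D5:**
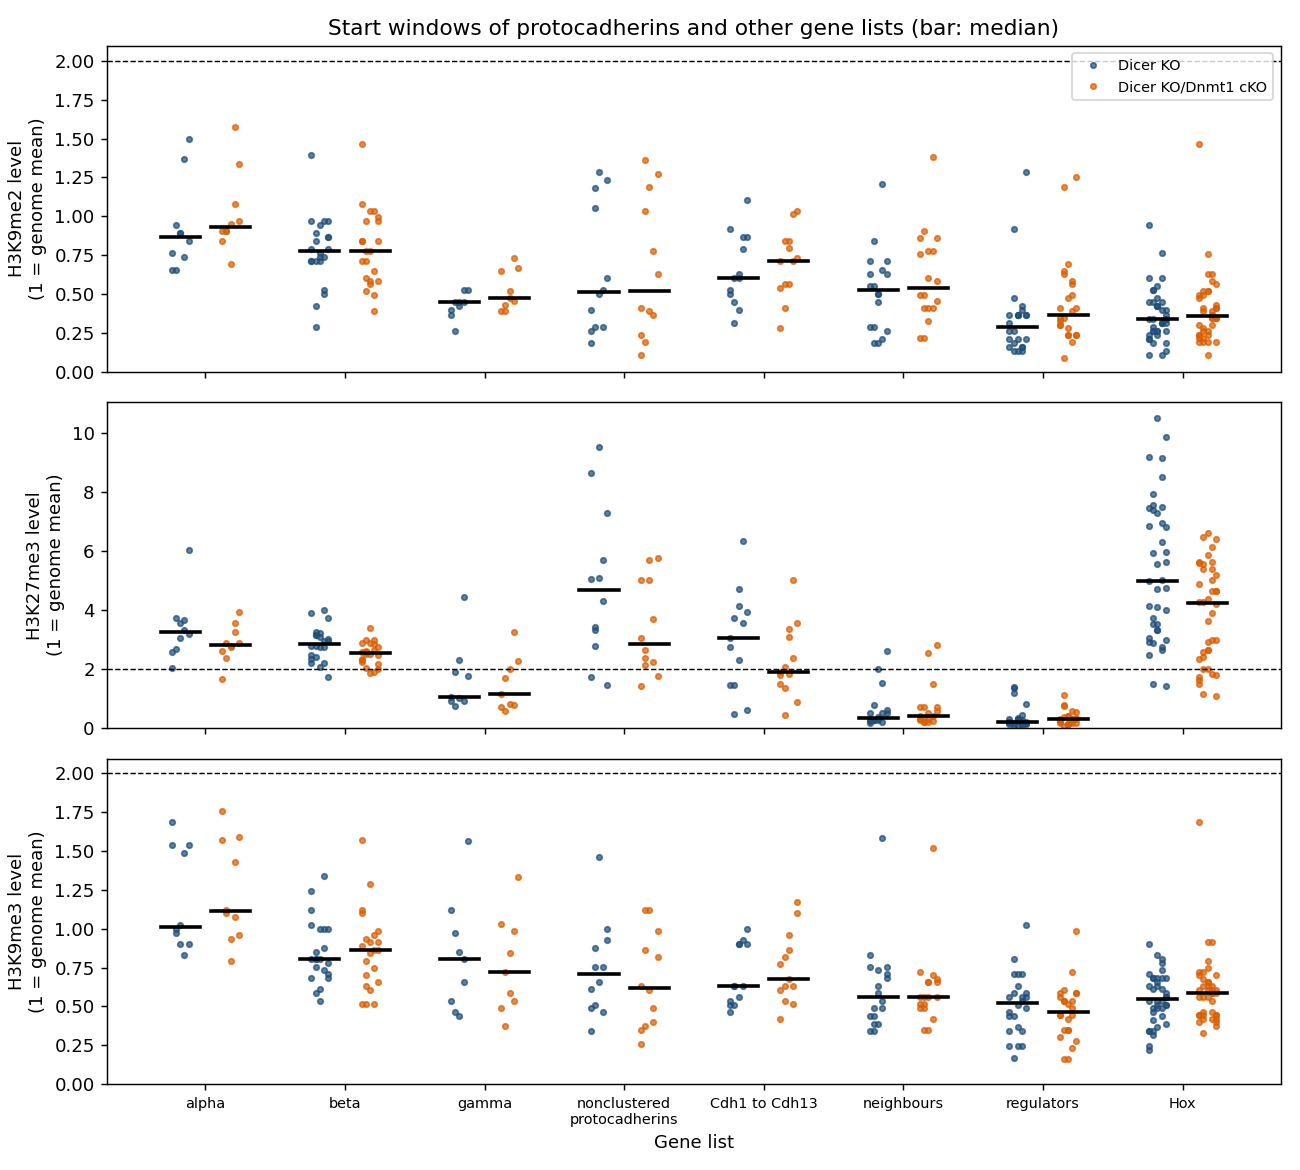
Levels of the 3 marks in the start windows of alpha, beta and gamma protocadherins and of 5 other gene lists, with 1 as the genome mean and a dashed line at 2. Each point is a start or gene, blue in the Dicer KO and orange in the Dicer KO/Dnmt1 cKO, and black bars are medians. In H3K27me3 alpha and beta lie above 2 in both genotypes by their medians, with nonclustered protocadherins and Hox genes higher still in the Dicer KO.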

How the data were processed

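ChIP-seq of 3 histone marks in 2 genotypes gave 6 libraries. The authors used Trim Galore for trimming and Bowtie2 for mapping to NCBIM37 and discarded reads of low mapping quality. They deposited, for each tile, the log2 ratio of the observed to the expected reads. The methods of the study state 1 kb tiles, whereas the deposited values cover 2 kb. Of 25 columns of values, 6 matched the sample labels, and the other 19 were left unused. The ratios were turned back into whole reads, with tiles at the lowest value taken as empty. Genes came from a GENCODE annotation of the same build.

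Software was Python 3.11.15 with scipy 1.17.1, pandas 2.3.3 and numpy 2.4.6, and matplotlib 3.10.9 for plots. Scripts were tested on simulated data. Intervals are 95% intervals for counting error, exact Poisson for levels and by normal approximation for changes. Changes of start windows had 0.5 reads added to each count and needed 50 reads over both libraries, and 1.5-fold was the threshold.

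Members and gene lists were chosen with earlier results of these data known. Named were, for each mark, the 3 highest and 3 lowest members in the Dicer KO and the 3 largest changes each way, the first and last member of each cluster, Dnmt1, Dicer1, and the 2 highest and 2 lowest genes of the smaller lists. The last were given for H3K27me3 only, and for Hox, Zfp and olfactory receptor genes not at all. A gene that the rule names is not reported here. The C-type genes of the rule could not be matched, since the annotation merges alpha and gamma genes, and Pcdh21 was not matched. The search for variable exons, the use of 1 start per annotated gene and the counts of intervals were added after the data had been seen. Alternatives covered scalings, references, windows, thresholds and starts.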

Additional observations from a re-analysis of the deposited data

How the results depend on the processing

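The 9 changes of the clusters stayed within their counting intervals under all 5 alternatives: another scaling of the libraries, the median tile ratio set to 0, autosomes only, and leaving out the tiles or the tile with most reads. Of the 9, 8 kept their direction. The scalings shifted the log2 ratios by at most 0.012. The exception in direction was H3K9me2 over alpha, a change near 0, which went from −0.0045 to 0.0043 with the median tile ratio set to 0.

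Of 90 cluster levels recomputed, 65 stayed within their intervals and 25 moved. In each genotype pair below, the Dicer KO comes first. Relative to chromosome 18, H3K9me2 was 0.926 and 0.930 in alpha, 0.784 and 0.785 in beta, and 0.535 in gamma in the Dicer KO/Dnmt1 cKO. With autosomes only, H3K27me3 was 1.81 and 1.70 in alpha, 2.11 and 1.84 in beta, and 1.254 in gamma in the Dicer KO. Relative to the median tile, H3K27me3 was 2.15 and 2.03 in alpha, 2.50 and 2.19 in beta, and 1.49 and 1.32 in gamma, and H3K9me3 was 1.23 and 1.26 in alpha, 1.06 and 1.08 in beta, and 0.789 in gamma in the Dicer KO/Dnmt1 cKO. Without the 0.1% of tiles with most reads, H3K9me3 was 1.24 and 1.22 in alpha and 1.07 and 1.04 in beta.

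All 18 balances between marks moved when a single mark was the reference. Against H3K9me2, H3K27me3 was 1.88 and 1.77 in alpha, 2.58 and 2.26 in beta, and 2.67 and 2.00 in gamma, and H3K9me3 was 1.17 and 1.15, 1.19 and 1.16, and 1.60 and 1.248. Against H3K9me3, H3K9me2 was 0.858 and 0.872, 0.842 and 0.861, and 0.626 and 0.802. H3K9me3 thus passed from below 1 to above 1.

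Of 54 counts of starts at high levels, 51 stayed within 1.5 times the reported count. At 1.5 times the genome mean in place of 2, 1 start counted for H3K9me2 in the Dicer KO/Dnmt1 cKO, and 4 and 4 for H3K9me3. Of 56 counts of changed starts, 46 stayed within that range. Higher H3K9me2 was counted at 1 of the 37 variable exons with enough reads of the 58, and higher H3K27me3 at 1 start with the start tile alone. Lower H3K27me3 was counted at 0 starts with a 2-fold threshold and at 1 with 5 reads added. Higher H3K9me3 was counted at 0 of the 6 starts with at least 100 reads, which held none of the starts called at 50 reads, 0 with 2-fold and 1 with 5 reads added, and lower H3K9me3 at 0, 0 and 0. The start tile alone gave no value for changes of H3K9me2 and H3K9me3, since no start had 50 reads. The 58 variable exons and 1 start for each of the 25 genes were chosen after seeing the data.

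With the median tile in place of the mean, 23 of 34 classes of tiles stayed within their intervals for H3K27me3. The others were 3.01 at alpha starts, 3.32 at other alpha variable exons and 1.76 before beta in the Dicer KO, and, in both genotypes, 0.733 and 0.749 at gamma starts, 1.37 and 1.43 at other gamma variable exons, 0.831 and 0.873 over other gamma tiles, and 0.904 and 0.842 before gamma. Not among the 34 were tiles with and without a variable exon. Their medians were 2.91 and 2.84 with and 1.42 and 1.37 without in alpha, 3.08 and 2.68 with and 1.61 and 1.53 without in beta, and 1.61 and 1.43 with and 0.440 and 0.499 without in gamma. For the levels, the balances and the tile medians the cause was not tested.

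No paired analysis was possible because there was a single library of each mark per genotype. Depth limits the values of single starts. A start window at the genome mean held about 3 times the mean of 12.7 to 20.5 reads per tile, and the counting interval of the change excluded 0 at 0 of 30 starts for H3K9me2 and at 1 of 38 for H3K9me3. Of the 41 starts, 11 had too few reads for a change of H3K9me2 and 3 for H3K9me3. Variation between cultures and preparations was not measured.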
